A study of Mus musculus with 2 samples.

Results

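Tnf and the NF-kappaB genes that answer and restrain it were followed through the myeloid cells of the mouse retina. The set held 10 genes, chosen by symbol, of the 31053 genes in each count matrix: the ligands Tnf and Tnfsf9, the NF-kappaB subunits Nfkb1, Nfkb2 and Relb, the inhibitors Nfkbia, Nfkbiz and Tnfaip3, and the target genes Tnfaip2 and Cd83. Each symbol matched 1 row, and the rows held between 878 UMIs (Nfkb2) and 59354 UMIs (Nfkbia) over all cells. A UMI is a molecular identifier, so that 1 UMI stands for 1 captured transcript. The libraries were made by 3′ tagging, in which the count of a gene does not grow with its length.

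NF-kappaB is a family of transcription factors that waits in the cytoplasm, bound by inhibitor proteins, and enters the nucleus when a receptor for Tnf, for interleukin 1 or for microbial products is engaged. Some of its first targets are its own brakes: Nfkbia encodes the inhibitor IkBα, which pulls the factor back out of the nucleus, and Tnfaip3 encodes A20, which edits ubiquitin chains on the receptor complex. Microglia, the resident macrophages of the retina and brain, are a known source of Tnf, and they also raise these transcripts within minutes when they are handled or warmed.

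The study made 2 libraries, 1 per condition. One came from C57BL/6j mice kept in room air (RA) and the other from mice of the same strain with oxygen-induced retinopathy (OIR), a model in which newborn mice breathe high oxygen and vessels then overgrow once they return to room air. Both were taken on postnatal day 17, from retinas that were digested with collagenase at body temperature, and the cells were sorted as positive for CD11b and F4/80. Each library pooled several retinas, and how many animals these came from is not given in the sources used here. With 1 library per condition no spread between animals can be given, and the library and the condition cannot be told apart. The intervals below are exact 95% intervals for counting error only and test nothing between conditions. Gene positions are those of RefSeq on GRCm38.p6, the assembly called mm10. Levels are in CPM, the UMIs of a gene per 1000000 UMIs of its class and library.

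The RA library held 1449 cells and 12810892 UMIs, and the OIR library 1259 cells and 9835402 UMIs. After the filters 1295 RA cells (median 9064 UMIs) and 1179 OIR cells (median 5427 UMIs) remained, and the libraries shared 0 cell barcodes. Clustering gave 6 microglia-like clusters, 1 led by dividing markers, 2 macrophage-like, 1 monocyte-like and 1 that stayed unnamed. They are called microglia, dividing cells, macrophages and monocytes here. The 10 genes and the pathway lists were kept out of the genes that aligned the libraries and formed the clusters. So were the lists of stress, homeostatic, disease-associated and interferon genes and of nuclear transcripts such as Malat1.

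Of the microglial clusters, 2 held less of the nuclear transcript Malat1 than 25% of the median over the microglial clusters, and they are called Malat1-poor. Their Malat1 level was 2036 CPM in RA and 355 in OIR, against 18867 and 7476 in the other, Malat1-rich microglia. Malat1-poor cells made up 75 of 780 microglia in RA and 189 of 557 in OIR. The other Malat1-poor cluster held P2ry12, a defining microglial receptor, in 59.1% of its cells without thinning, at a median of 2588 UMIs. The cluster led by P2ry12 held it in 99.5% (10088 UMIs) and a macrophage cluster in 83.1% (12712 UMIs). The smaller Malat1-poor cluster (66 cells, median 2595.5 UMIs) held it in 19.7%. This smaller cluster was close to empty of Malat1 at 18.9 CPM, and its leading genes were Gclm, Mmp12, Slc48a1, Prdx1 and Hmox1. C1qa, a complement gene of microglia and macrophages, was found in 98.5% of its cells. Like every microglial cluster but the one led by P2ry12, it was placed by the median of the microglial markers alone. That median log2 fold over the non-myeloid clusters was 3.15. It was 3.61 in the monocyte cluster and 4.08 and 4.47 in the macrophage clusters, so the place of this cluster is uncertain.

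Stretches before a transcript start are shown for 4 of the genes. They carry the letters of the κB consensus, the short sequence that NF-kappaB binds. Those of Nfkb2 and Tnfaip2 lie inside the gene spans (chr19:46300994-46312400 and chr12:111442450-111455018), before a transcript start within the span. RefSeq windows of 300 bases (250 before and 50 after the start, GRCm38.p6) were at hand for 5 of the 10 genes: Tnf, Nfkbia, Tnfaip3, Tnfaip2 and Nfkb2. Searched on both strands for the κB consensus, counting overlapping matches, 4 of these 5 genes held it in a window (Tnfaip3 has 2 windows and Nfkb2 has 3). It was found in 8.46% of all 32851 windows, and in 1.22% at 2 or more places. Matches stand in capitals, and each stretch reads 5′ to 3′ along the gene. The Nfkbia stretch is chr12:55492657-55492686 (minus strand), that of Tnfaip3 is chr10:19015411-19015545 (minus strand), that of Nfkb2 is chr19:46304688-46304736 (plus strand) and that of Tnfaip2 is chr12:111442627-111442656 (plus strand).
Nfkbia: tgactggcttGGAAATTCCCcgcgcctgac
Tnfaip3: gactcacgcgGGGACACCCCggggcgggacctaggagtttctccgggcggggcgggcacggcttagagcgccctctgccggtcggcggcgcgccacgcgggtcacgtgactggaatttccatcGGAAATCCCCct
Nfkb2: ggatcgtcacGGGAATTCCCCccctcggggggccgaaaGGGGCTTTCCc
Tnfaip2: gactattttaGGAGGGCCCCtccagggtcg
Positions are counted from the transcript start of each window. The match of Nfkbia starts 29 bases before it, that of Tnfaip2 24 bases before it, and those of Tnfaip3 125 and 12 bases before it. In Nfkb2 the first run in capitals is a pair of overlapping matches, 39 and 38 bases before the start, and the next lies 11 bases before it. The stretches shown for Tnfaip3 and Nfkb2 come from 1 of their windows each. The window of Tnf (chr17:35201958-35202257) holds no match, which says only that these letters are not in these 300 bases.

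The OIR library held more Tnf in microglia, dividing cells and monocytes, and about the same in macrophages, while Tnfsf9 differed by the widest margin of the 10 genes in microglia, dividing cells and macrophages but not in monocytes. Tnf (chr17:35199367-35202007), a cytokine, stood at 1492 CPM in RA microglia (1465 to 1519) and at 2081 in OIR microglia (2037 to 2127). The log2 ratio of OIR over RA was 0.48 (0.44 to 0.52), or 1.40-fold. In the Malat1-rich microglia alone the levels were 1543 and 2407, a log2 ratio of 0.64 (0.60 to 0.68). Dividing cells held 755 CPM in RA, from 17 cells, and 2299 in OIR, from 126 cells, a 3.05-fold difference. Of the 17 RA cells 8 held a Tnf UMI, and the 2 highest held 62.1% of the 140 UMIs. In monocytes the levels were 330 and 723, a 2.19-fold difference. The 5 highest of the 52 RA monocytes held 82.8% of their Tnf UMIs, and the log2 ratio of 1.13 was 0.97 as a mean over cells and 0.63 without the filter on the number of genes, both under 2-fold. In macrophages the levels were 851 and 886, a log2 ratio of 0.06 (-0.06 to 0.17). The intervals of the RA and OIR levels overlapped in macrophages and in none of the other 3 classes.

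Tnfsf9 (chr17:57105287-57107758) encodes the ligand of the co-stimulatory receptor 4-1BB. RA microglia held 39.7 CPM of it (35.5 to 44.4) and OIR microglia 223 (209 to 238), a log2 ratio of 2.49 (2.30 to 2.68), or 5.62-fold. Macrophages held 13.3 CPM in RA and 106 in OIR, a 7.98-fold difference that rests on 17 UMIs in 7 of 92 RA cells. In OIR 18 of 138 macrophages held a UMI, and the 14 highest held 97.6% of the UMIs, so this ratio turns on few cells. Dividing cells held 0 UMIs of 185394 in RA and 319 in OIR. Setting the RA value to 3 UMIs, the level in OIR dividing cells was 14.8-fold higher, a bound for counting error of UMIs only. The UMIs were not spread evenly, since the 13 highest of the 126 OIR cells held 80.6% of them. Without thinning, Tnfsf9 was in 0 of the 17 RA cells, a share of up to 19.5%, and in 26.2% of the OIR cells. Monocytes did not follow, with 221 CPM in RA and 220 in OIR and a log2 ratio of -0.01 (-0.33 to 0.31). Their RA level came from 6 of 52 cells, and the 5 highest cells held 99.3% of its UMIs, so that this ratio turns on a few cells. As a mean over cells, which gives each cell the same weight, it was 0.61.

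**Figure D1:**
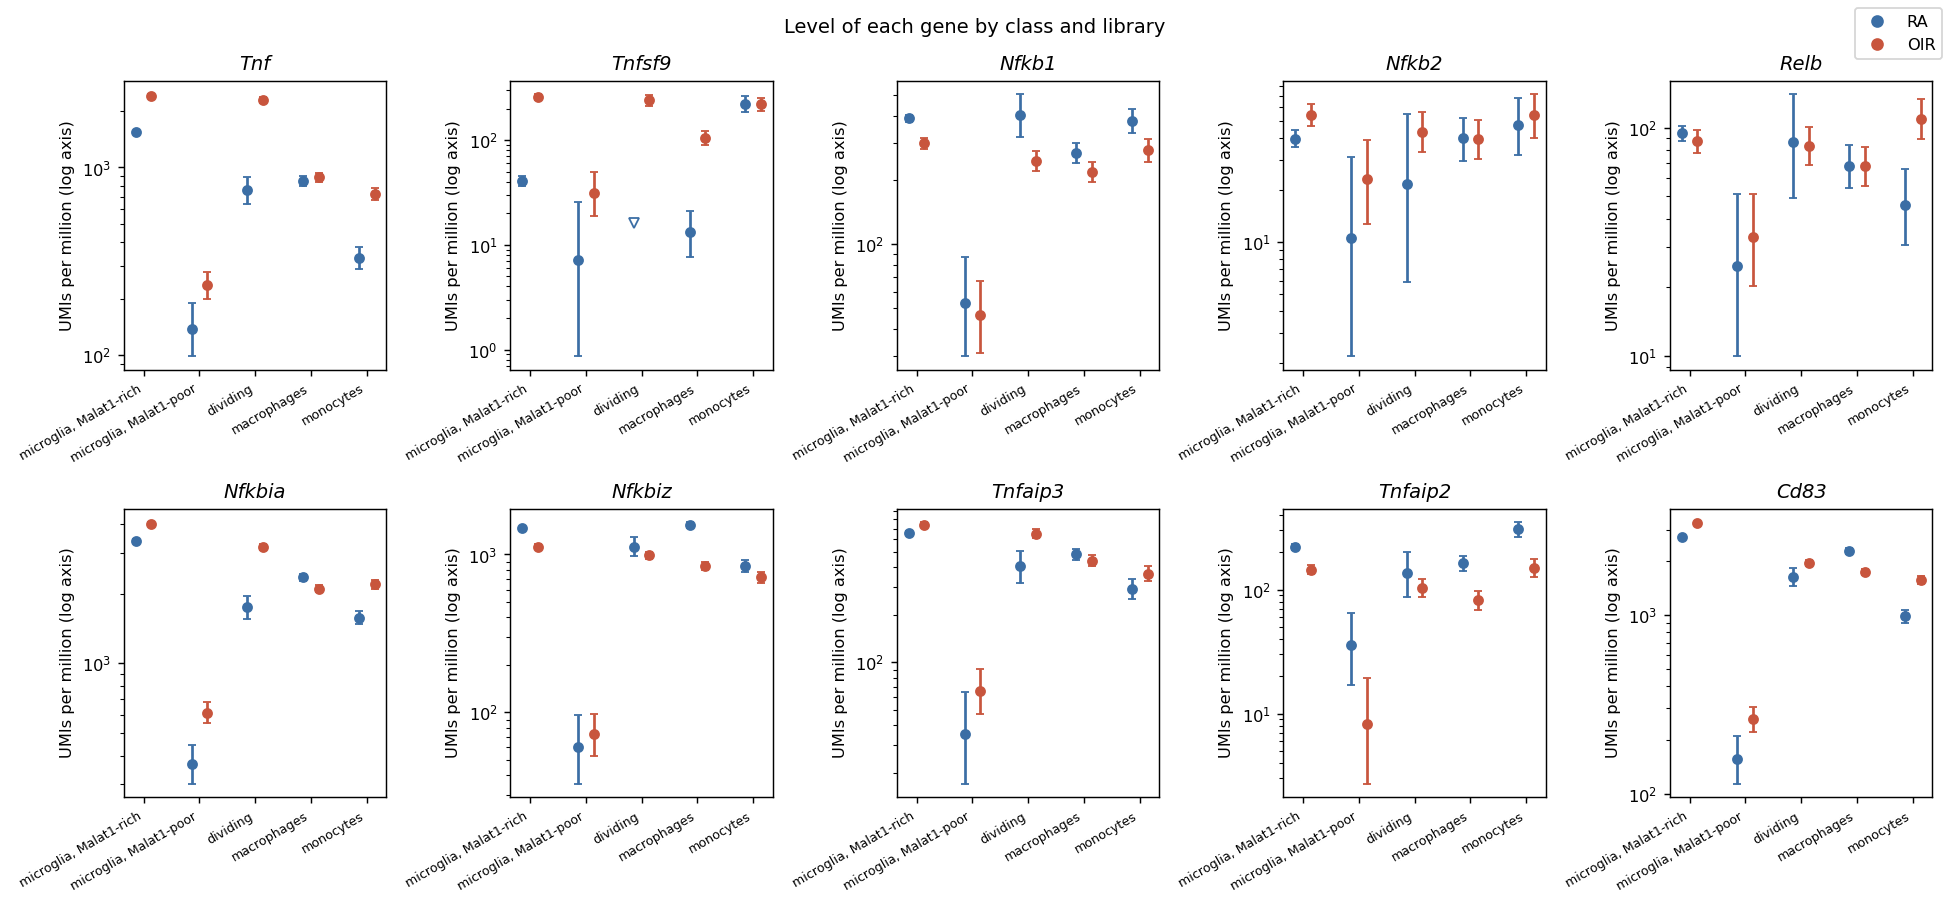
Level of each of the 10 genes in CPM (log axis) in Malat1-rich microglia, Malat1-poor microglia, dividing cells, macrophages and monocytes, for RA (blue) and OIR (red), with exact 95% counting intervals. The open triangle marks Tnfsf9 in RA dividing cells, where 0 UMIs were counted, at the level of 3 UMIs. All 10 genes are lower in Malat1-poor than in Malat1-rich microglia of the same library.

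Of the subunits, Nfkb1 was lower in OIR in all 4 classes and Nfkb2 and Relb had no common direction. Nfkb1 (chr3:135584655-135691969), which encodes p105 and p50, stood at 378 CPM in RA microglia and 261 in OIR microglia, a log2 ratio of -0.54 (-0.64 to -0.43). Its log2 ratio was -0.71 (-1.08 to -0.33) in dividing cells, -0.30 (-0.52 to -0.07) in macrophages and -0.46 (-0.72 to -0.20) in monocytes. Nfkb2 (chr19:46300994-46312400), the precursor p100 and p52 of the alternative pathway, was sparse, with 38.6 CPM in RA microglia and 49.5 in OIR, and its intervals included 0 in the other 3 classes. Relb (chr7:19606217-19629438), the partner of p52, was at 92.1 and 79.1 CPM in RA and OIR microglia. In Malat1-rich microglia alone it was at 94.6 and 87.2, which did not differ beyond counting error. In monocytes it was at 45.8 and 109, a log2 ratio of 1.25 (0.65 to 1.90) that rests on 29 and 99 UMIs. The highest OIR monocyte held 20 of the 99, and the 9 highest of the 92 cells held 52.5%. Over the alternative settings this ratio was as low as 0.79, under 2-fold.

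The inhibitors did not move as 1 group. Nfkbia (chr12:55489409-55492647), the most abundant gene of the set, was at 3278 CPM in RA microglia and 3500 in OIR microglia, a log2 ratio of 0.094 (0.065 to 0.12). In Malat1-rich microglia alone it was at 3387 and 4009 CPM. In dividing cells it was at 1742 and 3178, in monocytes at 1575 and 2192, and in macrophages at 2354 and 2102, where the log2 ratio was -0.16 (-0.23 to -0.09). Tnfaip3 (chr10:19000910-19015410) was level in microglia, at 638 and 642 CPM, with a log2 ratio of 0.0085 (-0.061 to 0.077). In Malat1-rich microglia alone it was at 661 and 743 CPM, a log2 ratio of 0.17 (0.10 to 0.24). Its ratio was 0.68 (0.34 to 1.04) in dividing cells, 0.32 (0.05 to 0.59) in monocytes and -0.13 (-0.29 to 0.03) in macrophages. Nfkbiz (chr16:55811375-55838954), an atypical nuclear inhibitor that also helps to switch on secondary genes such as Il6, was lower in OIR. It stood at 1412 CPM in RA and 966 in OIR microglia, a log2 ratio of -0.55 (-0.60 to -0.49), and at 1540 and 848 in macrophages, a log2 ratio of -0.86 (-0.96 to -0.76). The ratio was -0.23 (-0.40 to -0.06) in monocytes, and in dividing cells, at -0.19, the interval of -0.40 to 0.03 included 0.

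The targets Tnfaip2 and Cd83 went separate ways. Tnfaip2 (chr12:111442450-111455018), which encodes a protein of membrane protrusions, was lower in OIR at 124 CPM against 213 in RA microglia, a log2 ratio of -0.78 (-0.93 to -0.63). Its ratio was -0.98 in macrophages (-1.31 to -0.66) and -1.03 in monocytes (-1.36 to -0.71), and in dividing cells the interval of -1.01 to 0.29 included 0. Cd83 (chr13:43785112-43803133), a surface protein of activated antigen-presenting cells, stood at 2634 and 2802 CPM in RA and OIR microglia, a log2 ratio of 0.089 (0.056 to 0.12). In Malat1-rich microglia alone it was at 2727 and 3250 CPM. In monocytes it was at 980 and 1573, and in macrophages it was lower in OIR, at 1746 against 2275. Dividing cells held 1962 against 1624.

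Read over the whole set, the genes did not share a direction. In microglia 6 of the 10 were higher in OIR and 4 lower, with a median log2 ratio of 0.05 beside -0.01 over the 10409 genes with at least 20 UMIs. Past a 2-fold difference lay 1 of the 10 above (Tnfsf9) and 0 below, where 6.47% of all those genes were higher and 7.51% lower. In dividing cells the median, with Tnfsf9 at its bound, was 0.48 beside 0.09 for all genes, with 3 genes past 2-fold above (Tnf, Tnfsf9 and, on 4 RA UMIs, Nfkb2) and 0 below, where 13.7% of all genes were higher and 9.23% lower. In macrophages the median was -0.15 beside 0.15 for all genes, with 1 gene past 2-fold above (Tnfsf9) and 0 below, where 9.69% of all genes were higher and 5.42% lower. In monocytes the median was 0.25 beside 0.11, with 2 genes above (Tnf and Relb) and 1 below (Tnfaip2), where 8.01% of all genes were higher and 6.69% lower. None of these counts stood more than 2 genes from what the background share gives for 10 genes.

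**Figure D2:**
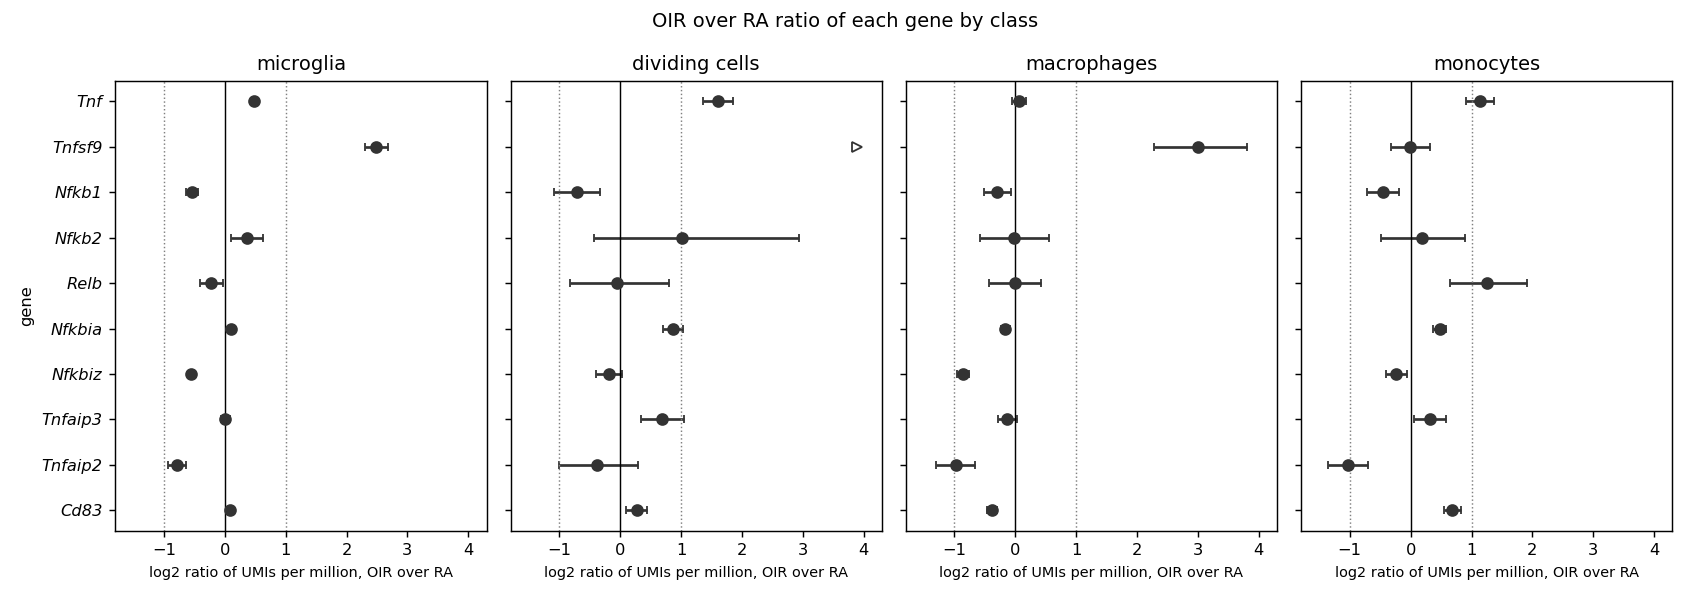
Log2 ratio of CPM, OIR over RA, for each gene in microglia, dividing cells, macrophages and monocytes, with exact 95% counting intervals; dotted lines mark 2-fold, and the open triangle is a lower bound. Tnfsf9 lies at 2.49 in microglia and higher in macrophages (7.98-fold) but at -0.01 in monocytes, and Tnfaip2 is below 0 in each of the 4 classes.

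Cells of other kinds were not evenly shared between the 2 libraries within these classes. The 17 RA dividing cells held 2363 CPM of the 10 monocyte markers and the 126 OIR dividing cells 138, and of the 9 monocyte markers compared all 9 were more than 2-fold lower in OIR. Neutrophil markers summed to 6694 CPM in the RA and 70.4 in the OIR dividing cells, and erythroid markers to 10.8 and 1123. In monocytes the 12 microglial markers summed to 5273 CPM in RA and 9686 in OIR, and C1qa was found in 42.4% of the cells of that cluster. The monocyte markers summed there to 9292 CPM in RA and 5310 in OIR, neutrophil markers to 1855 and 422 and dendritic cell markers to 166 and 43.1. The macrophages included a shallow cluster of 70 cells, 18 from RA and 52 from OIR. Without it the macrophage ratio of Tnfsf9 was 2.81 and that of Tnf -0.09. The part of these cells in the ratios was not tested.

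Malat1 was itself lower in the OIR library, at 6409 against 18261 CPM in microglia and at 6420 against 17391 in macrophages. The 23 immediate-early and stress genes, which also answer to handling, summed to 34133 CPM in RA microglia and 24734 in OIR microglia. Of these 23, 0 were past 2-fold higher and 5 past 2-fold lower in OIR (Ddit3, Egr3, Egr1, and, named after their values were seen, Rrad and Btg2), beside the 6.47% and 7.51% of all genes. In Malat1-rich microglia alone 1 of the 23 (Ddit3) was past 2-fold lower, beside 6.39% of all genes, and Egr1, Egr3, Rrad and Btg2 had log2 ratios of -0.91, -0.91, -0.92 and -0.91. Over all microglia Klf2, Dusp1 and Fosb were higher, with log2 ratios of 0.41, 0.15 and 0.14. In the Malat1-rich alone these were 0.55, 0.30 and 0.28. The part that the digestion and sort had in the levels of the 10 genes was not tested.

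The rest of the pathway gave other directions for other roles. The 2 remaining subunits, Rel and Rela, were both lower in OIR microglia, with log2 ratios of -1.15 (-1.25 to -1.05) and -0.59 (-0.76 to -0.43). Of 12 further inhibitors and feedback regulators with at least 20 UMIs, 0 passed 2-fold. The lowest were Bcl3, a nuclear partner of p50 and p52, at -0.77, Zc3h12a, an RNase that destroys cytokine transcripts, at -0.60, and Zfp36, which destabilises the Tnf transcript, at -0.49. Of 21 kinases and adaptors 0 passed 2-fold, and the lowest was Map3k14, the kinase of the alternative pathway, at -0.96, followed by Traf3 at -0.85 and Tab2 at -0.80.

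The receptors of Tnf itself, chosen for mention after their values were seen, differed little. Tnfrsf1a and Tnfrsf1b had log2 ratios of 0.03 (-0.11 to 0.18) and -0.06 (-0.30 to 0.17), and Adam17, the protease that releases Tnf from the membrane, -0.0046 (-0.19 to 0.18). Of the 9 receptor and processing genes 0 passed 2-fold in either direction, and the highest were the death receptor Fas at 0.43, on 9 and 13 UMIs, Tnfrsf11a, which encodes RANK, at 0.39 and Rhbdf2, a partner of Adam17, at 0.34. Of 4 further ligands compared, Ltb, which encodes a lymphotoxin, was lower at -1.22 on 9 and 41 UMIs, and Tnfsf12, which encodes the ligand TWEAK, was at 0.87 (0.65 to 1.10).

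Of 28 other NF-kappaB target genes, 8 were past 2-fold higher in OIR microglia and 0 lower, beside the 6.47% and 7.51% of all genes. The highest ratios were those of the neutrophil chemokine Cxcl1, at 4.55 on 24 and 2 UMIs, the adhesion receptor Cd44, at 1.36, and the mitochondrial superoxide dismutase Sod2, at 1.28. The lowest were those of Ccl4, a chemokine, at -0.64, of the survival gene Birc3, at -0.51, and of Bcl2a1d, at -0.49. Bcl2a1d is one of several near-identical copies, so its reads may be split between them. Summed, the 28 genes held 29291 CPM in RA microglia and 29384 in OIR microglia. For scale, 7 of 8 genes of disease-associated microglia were past 2-fold higher in OIR, up to 6.49 for Spp1.

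Single microglia differed widely in Tnf. Over 705 Malat1-rich RA cells the value ran from 0 to 117 UMIs per 10000, with a median of 9.66, and over 368 OIR cells from 0 to 131, with a median of 19.6. The 70 highest RA cells and the 37 highest OIR cells, 10% of each, held 36.7% and 31.9% of the Tnf UMIs. Tnfsf9 was concentrated further, with a median of 0 in both libraries and 99.7% of its UMIs in the 70 highest RA cells and 76.8% in the 37 highest OIR cells. Nfkbia was spread over nearly all cells, with medians of 31.4 and 39.9 UMIs per 10000. The 25th and 75th percentiles of Tnf were 2.86 and 21.2 in RA and 6.43 and 39.6 in OIR, so the OIR values were higher at each of these points. Tnfsf9 was found in 10.1% of the RA cells and 26.6% of the OIR cells without thinning, at median depths of 10525 and 8800 UMIs.

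**Figure D3:**
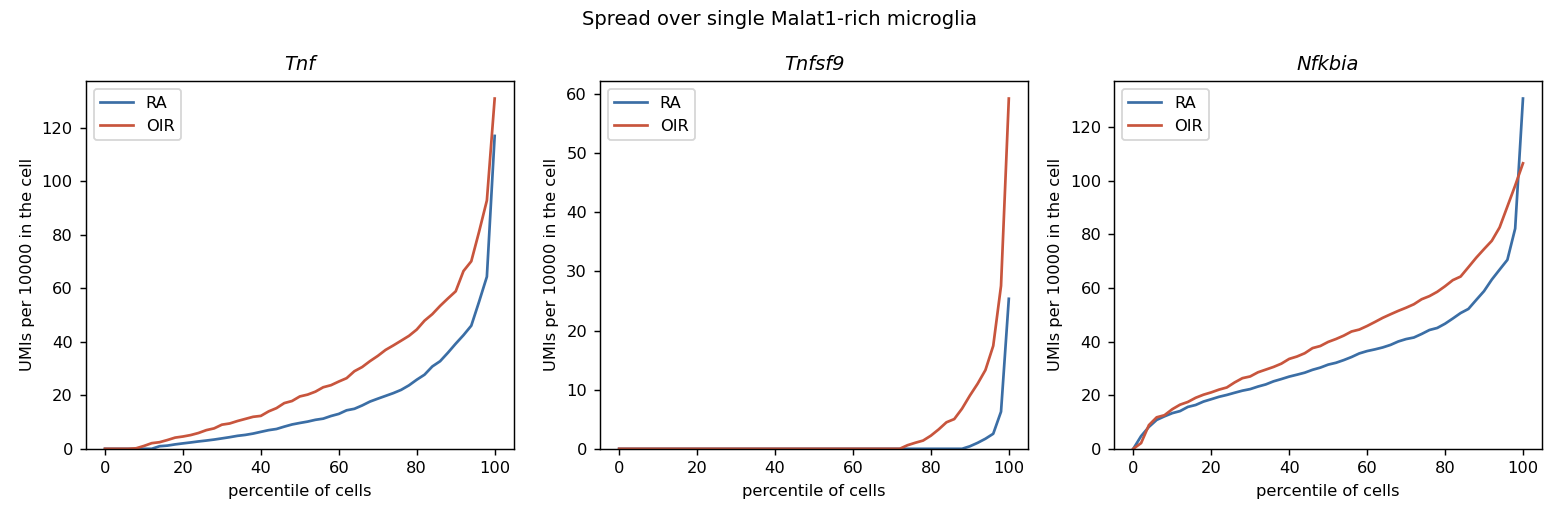
UMIs per 10000 of Tnf, Tnfsf9 and Nfkbia against the percentile of cells, for the 705 RA (blue) and 368 OIR (red) Malat1-rich microglia. The OIR line of Tnf lies above the RA line at the median (19.6 against 9.66), and both lines of Tnfsf9 are at 0 at the median.

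Across single Malat1-rich microglia Tnf went with the inhibitors and Cd83 more than with the subunits. The Pearson correlation of Tnf with Nfkbia was 0.33 over 705 RA cells and 0.57 over 368 OIR cells, on the log2 scale of UMIs per 10000 plus 1. With Cd83 it was 0.44 and 0.41, and with Tnfaip3 0.32 and 0.40. With Nfkb1 it was -0.03 and 0.05, with Nfkb2 -0.03 and -0.04 and with Relb -0.04 and 0.07. The cells of a library share its depth and handling, and correlations of sparse genes are held down by counting error, so these values are descriptions.

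At equal depth the share of cells with a Tnf UMI was close in all microglia of the libraries and higher in OIR once the Malat1-poor cells were set aside. Each cell was thinned to 2000 UMIs, and 27 RA and 72 OIR microglia with fewer UMIs were not counted. Of these, 26 and 69 were Malat1-poor. The share with a Tnf UMI was 66.4% of 753 RA microglia and 65.7% of 485 OIR microglia. The difference of -0.66 percentage points was 0.25 at 1000 UMIs and 2.19 at 4000. At 4000 UMIs 60 RA and 174 OIR microglia were not counted, 45 and 147 of them Malat1-poor. The mix of cells compared thus changed with the depth. In Malat1-rich microglia the share at 2000 UMIs was 70.2% of 704 and 81.5% of 365. Unthinned, the shares over all microglia were 80.1% (77.2 to 82.9) and 68.6% (64.5 to 72.4), at median depths of 10217.5 and 6513 UMIs.

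For some genes the shares followed the levels and for others they did not. Tnfsf9 was found at 2000 UMIs in 4.28% of RA and 14.2% of OIR microglia, and Nfkbiz in 82.5% and 64.1%. Over all microglia the shares of Nfkbia (92.6% and 82.2%), Cd83 (88.3% and 80.3%) and Tnfaip3 (59.5% and 54.3%) were lower in OIR. Their levels were equal or higher, so no order is read from them. In Malat1-rich microglia alone the shares were 97.5% and 96.9% for Nfkbia, 93.6% and 96.6% for Cd83 and 63.3% and 69.4% for Tnfaip3. Those of Nfkbiz were 87.8% and 81.3% there. Dividing cells held a Tnf UMI in 39.5% of 15 RA and 63.6% of 105 OIR cells, monocytes in 18.6% of 51 and 33.5% of 87, and macrophages in 55.2% of 88 and 48.3% of 121. In macrophages the share was lower in OIR while the level was 886 against 851 CPM, and no order is read from it either. Over all classes and both libraries the share of Nfkb2 lay between 2.39% and 10.8%.

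Rods, the light-sensing neurons, were compared as a background for the genes other than Tnfaip3. Whether rods make any of these transcripts themselves is not known from these data. They fell into a shallow cluster of 344 cells (median 1258.5 UMIs) and one of 194 cells rich in Malat1 (median 4278 UMIs), beside a median of 9150 UMIs over all microglia. At 1000 UMIs Tnf was found in 0.579% and 1.02% of these rods and in 53.0% of microglia. Nfkbia was found in 4.17% and 5.76% against 79.4%. Without thinning, the 58 Tnf UMIs of the Malat1-rich rods lay in 5.15% of these cells, and the 130 of Nfkbia in 22.2%. They thus sat in a minority of the cells. Whether they came from free RNA, from mixed cells or from the rods themselves was not tested. Tnfaip3 stood out in the rods, at 7.75% and 13.5% against 38.3% of microglia. In the Malat1-rich rods it had 181 UMIs and Tnf 58, whereas microglia of either library held more Tnf than Tnfaip3, so the ratio of the genes differed between them. The cause of this was not tested, and the rod level of Tnfaip3 is not taken as a measure of free RNA. At 2000 UMIs the Tnfaip3 share of 23.4% in RA monocytes lay below the 24.7% of the Malat1-rich rods. The level in these monocytes was 292 CPM, against 144 in these rods. At 1000 UMIs Tnfsf9 was found in 0.708% of the Malat1-rich rods and 5.48% of microglia. Without thinning it was in 0 of the 344 shallow rods, where a floor of 3 counts allows a share of up to 0.872% at their own median depth.

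**Figure D4:**
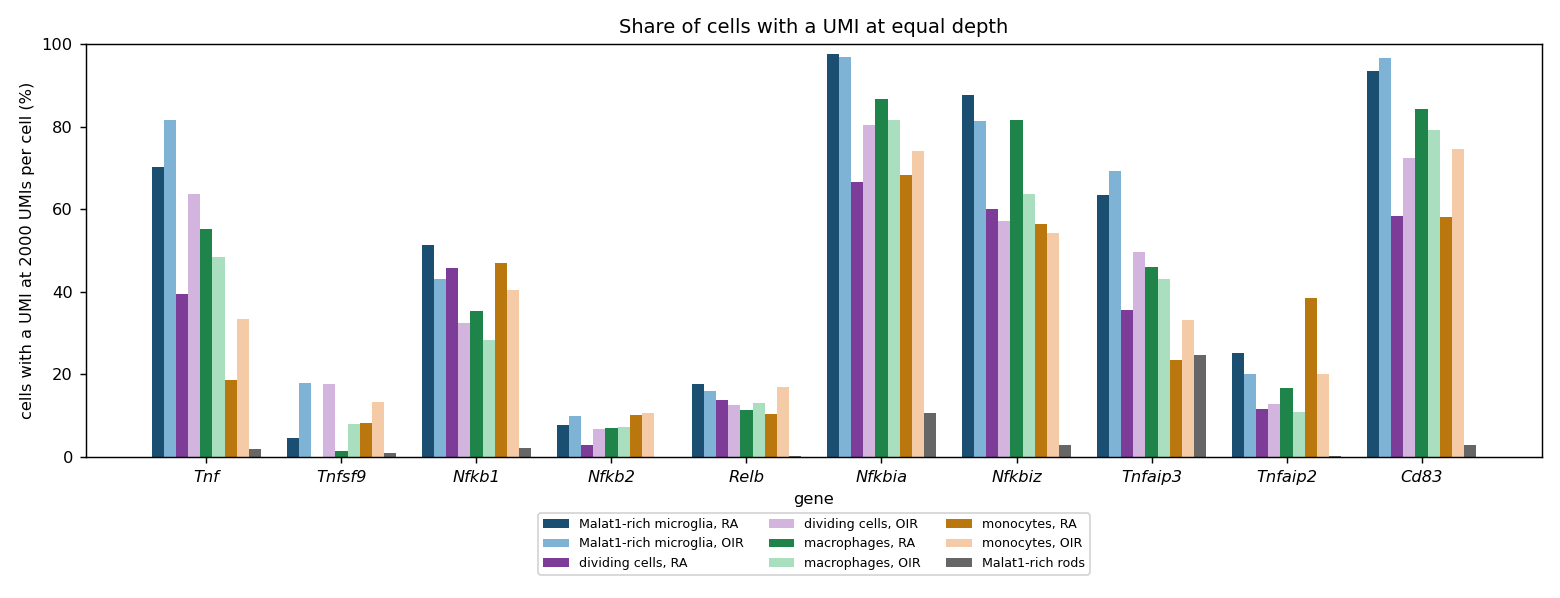
Share of cells (%) with at least 1 UMI of each gene after each cell was thinned to 2000 UMIs, for Malat1-rich microglia, dividing cells, macrophages and monocytes of both libraries and for Malat1-rich rods. Tnf reaches 70.2% and 81.5% in the microglia of RA and OIR, and Tnfaip3 is the gene found in most of these rods, at 24.7%.

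Malat1-poor microglia held little of the whole set. In the OIR library Tnf was at 236 CPM (198 to 278) in the 189 Malat1-poor cells and at 2407 (2355 to 2459) in the 368 others, a log2 ratio of -3.35 (-3.60 to -3.11), or 10.2-fold lower. Nfkbia was at 612 against 4009, Cd83 at 261 against 3250, Nfkbiz at 73.0 against 1123 and Tnfaip3 at 66.4 against 743. The 66.4 CPM of Tnfaip3 lay below its level in rods, 89.2 CPM in the shallow and 144 in the Malat1-rich. That rod level is not taken as a measure of free RNA, so whether 66.4 CPM is above background is not known. Tnfaip2 had the largest difference, at 8.30 against 145 CPM on 5 UMIs, and Nfkb2 the smallest, at 23.2 against 54.1. All 10 genes were past 2-fold lower, with a median log2 ratio of -3.19 beside -0.34 for all genes, where 29.6% of 8722 genes were past 2-fold lower and 4.64% higher. The group joins clusters m3 and m8, the second of which is the small cluster of uncertain place. In m3 alone 8 of the 10 were past 2-fold lower, beside 25% of all genes, with a median of -2.70, and Nfkb2 and Relb were at -0.88 and -0.94.

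The same held in RA, where the Malat1-poor group was 75 cells. All 10 genes were past 2-fold lower there too, with a median of -3.04 beside -0.26 for all genes, of which 28.9% were past 2-fold lower. Tnf was at 138 against 1543 CPM, and Tnfsf9 rested on 2 UMIs. At 2000 UMIs a Tnf UMI was found in 17.6% of the 120 Malat1-poor OIR cells deep enough, against 81.5% of the Malat1-rich, so the gap remained at equal depth. Within the cells of at least 2000 UMIs the OIR median was -3.39. The cells were clustered without these 10 genes, but on other genes that vary with them, so the difference is a description of the clusters.

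Other transcripts were lower in the same Malat1-poor cells. Of 23 immediate-early and stress genes 22 were past 2-fold lower and 0 higher in OIR, as were 26 of 28 other NF-kappaB targets, with Sod2 past 2-fold higher. Rel had a log2 ratio of -4.78, on 6 UMIs in the Malat1-poor cells, and Rela one of -2.25. The 20 kinases and adaptors compared had a median of -1.40, with 14 past 2-fold lower. Genes of disease-associated microglia went the other way, 7 of 8 past 2-fold higher, with Gpnmb at 3.66, Lgals3 at 2.78 and Fabp5 at 2.71. Rod markers summed to 202 CPM in the Malat1-poor and 59.1 in the Malat1-rich OIR microglia. Whether nuclear RNA was lost from these cells or was low in them was not tested.

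Within each library the Malat1-poor cluster with less Malat1 also held less of the set. Cluster m8 was at 29.1 CPM of Malat1 in RA, from 6 cells, and 17.4 in OIR, and cluster m3 at 2315 and 563. Summed, the 10 genes were at 553 CPM in RA and 575 in OIR in m8, and at 936 and 1893 in m3. Between the libraries m3 held less Malat1 and more Tnf in OIR (343 CPM against 141), as did the Malat1-rich microglia.

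**Figure D5:**
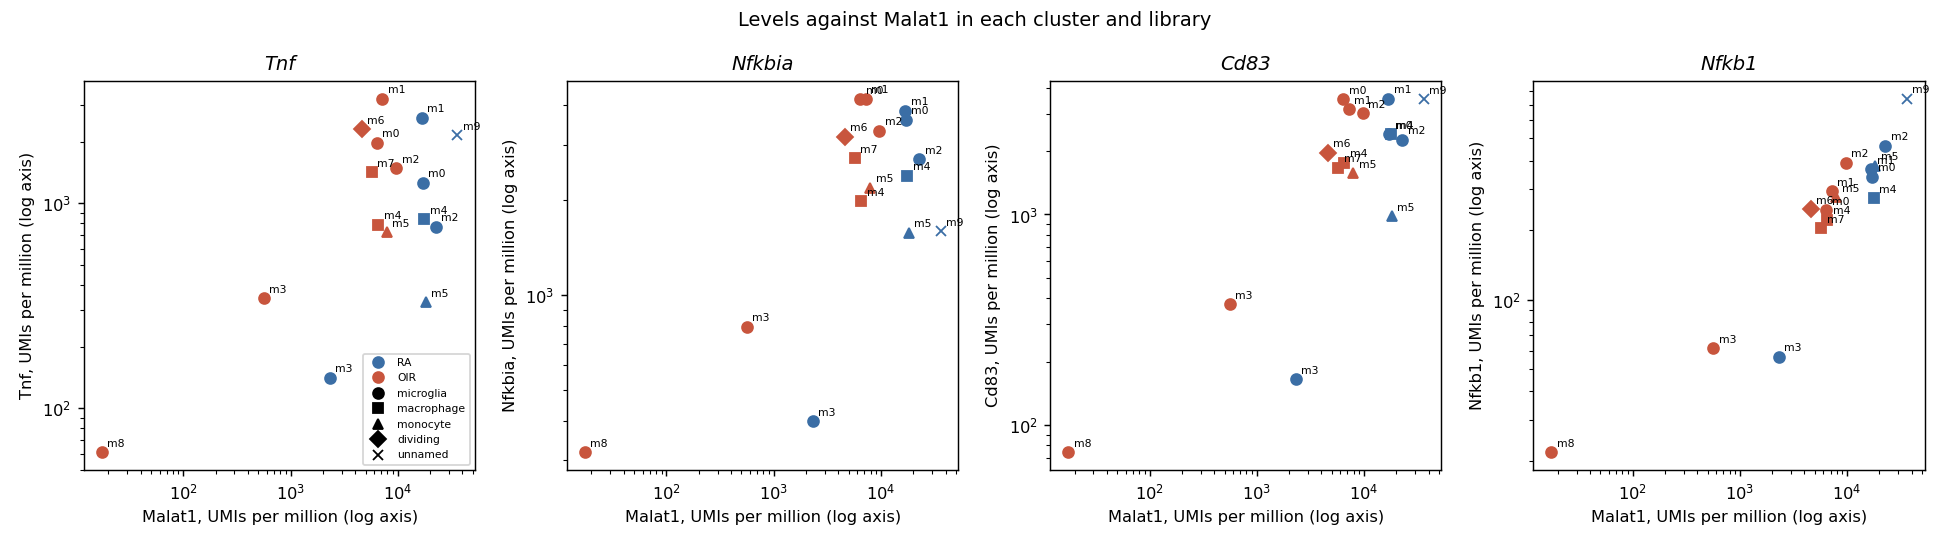
Tnf, Nfkbia, Cd83 and Nfkb1 against Malat1, all in CPM on log axes, for each myeloid cluster (m0 to m9) in each library with at least 20 cells; symbols give the class and colours the library. The Malat1-poor microglial clusters m3 and m8 lie lowest for Nfkbia, Cd83 and Nfkb1; for Tnf, m8 of OIR is lowest at 60.9 CPM, and m3 of OIR (343) is close to the RA monocytes (330).

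Among Malat1-rich microglia the clusters differed in the ligands more than in the inhibitors. The cluster with Tnfsf9, Prdm1, Arl5c, Nr4a3 and Csf1 as leading genes (m1, 212 RA and 139 OIR cells) held 2616 CPM of Tnf in RA and 3235 in OIR. The cluster led by the homeostatic genes P2ry12, Siglech, Sall1, Tmem119 and Sparc (m0) held 1261 and 1972. The cluster led by Rrad, Sertad1, Gm46224, Tsc22d3 and Ddit3 (m2) held 770 and 1485. Of its leading genes named here, Rrad, Sertad1 and Ddit3 are on the list of immediate-early and stress genes. Tnf was higher in OIR within each of these 3 clusters, while Tnf, Tnfsf9 and Tnfaip2 are themselves among the 10 leading genes of m1. Tnfsf9 was at 105 CPM in RA and 485 in OIR in m1, at 18.3 and 129 in m0 and at 2.47 and 58.1 in m2. Nfkbia spanned a narrower range, from 2698 in m2 of RA to 4190 in m1 of OIR over these 3 clusters. A small cluster led by the interferon genes Ifit2, Rsad2, Ifit1, Mx1 and Ifit3 (9 cells in each library) held 0 Tnfsf9 UMIs in both, and Tnf at 1623 and 2827 CPM.

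The order of the classes depended on the gene. Tnf was highest in OIR Malat1-rich microglia, then in OIR dividing cells (2299) and RA Malat1-rich microglia, and the next 4 values, from OIR macrophages at 886 to OIR monocytes at 723, differed from their neighbours by no more than counting error. Tnfaip2 was highest in RA monocytes, at 305 CPM, and Relb in OIR monocytes, at 109, which did not differ from RA microglia at 94.6 beyond counting error. Nfkbiz was highest in RA macrophages, at 1540, ahead of RA Malat1-rich microglia at 1462. Tnfsf9 in OIR microglia (257), OIR dividing cells (239) and monocytes of both libraries (221 and 220) formed a group without a difference beyond counting error between neighbours.

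The genes whose levels followed Tnf most closely over 16 groups of 1 cluster in 1 library were Slc35b2 (r = 0.95), Socs3 (0.94), Il1a (0.94), AU020206 (0.94), Cd83 (0.93), Tnfaip3 (0.92), Ier3 (0.92) and Abl2 (0.91), of 7326 genes compared on log2(CPM + 10). Nfkbia ranked 11th at 0.91, Relb at 0.85, Nfkbiz at 0.84, Nfkb1 at 0.78, Nfkb2 at 0.74, Tnfaip2 at 0.70 and Tnfsf9 at 0.48. The groups share 2 libraries and include the Malat1-poor clusters, which are low in all of these genes, so the values are given as a description. The printed stretches of Tnfaip3 and Nfkbia belong to genes near the top of this order, and those of Nfkb2 and Tnfaip2 to genes at ranks 382 and 645 of the 7326.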

How the data were processed

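Single cells sorted from RA and OIR retinas were profiled by the 10x Genomics 3′ method. The deposited values are UMI counts per gene and cell, made by the authors with Cell Ranger 3.1.0 (per the file headers) on mm10; the labels also name Seurat 4.0. The annotation release is not given in the sources used here. The genes and lists were chosen with earlier results of these data known.

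Cells with over 20% mitochondrial UMIs (125 RA, 55 OIR) and the 2% of cells with most genes (29 RA, 25 OIR) were left out. Seurat 5.3.0 integrated the libraries on 30 dimensions, on 3000 anchor genes less the 10 genes, the pathway lists and the other lists kept out. Ptprc, a marker of leukocytes, microglia included, had to be present in 10% or more of a cluster's cells for it to be clustered again at resolution 0.8. Clusters were named from marker lists: by at least 2 list genes among the 10 leading genes, otherwise by the list with the highest median log2 fold. These naming details were set after the data were seen, as was leaving out 20 cells with at least 10 UMIs of endothelial or pericyte markers. Scrublet marked 4 RA and 2 OIR cells, too few to rely on, and they were kept. UMIs were summed per class and library and divided by the class total. Levels have exact Poisson, shares exact Clopper-Pearson and ratios exact conditional binomial 95% intervals, and a count of 0 was set to 3 UMIs. Shares at equal depth are exact expectations after thinning each cell to 2000 UMIs. Ratio and thinning code was tested on simulated data (Python 3.11.15, scipy 1.17.1). Past 2-fold means a log2 ratio of at least 1 in size, among genes with at least 20 UMIs. All 10 genes are named, and from each pathway list up to 3 genes with the highest and 3 with the lowest ratio; the 8 genes most like Tnf and the 5 leading genes of a cluster are named. Promoter windows are from RefSeq, GRCm38.p6, the build of mm10. Alternatives changed the clustering, filters, depth and scaling.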

Additional observations from a re-analysis of the deposited data

Results flagged for a closer look

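Relb, Nfkbia and Cd83 had OIR over RA ratios whose counting intervals lay on opposite sides of 0 in different classes. The log2 ratio of Relb was 1.25 in monocytes, as low as 0.79 over the alternative settings, and -0.22 in microglia. That of Nfkbia was 0.094 in microglia, 0.87 in dividing cells and 0.48 in monocytes, and -0.16 in macrophages. That of Cd83 was 0.089, 0.27 and 0.68 in the same 3 classes and -0.38 in macrophages. In Malat1-rich microglia alone the RA and OIR levels were 3387 and 4009 CPM for Nfkbia and 2727 and 3250 for Cd83. Those of Relb, 94.6 and 87.2, did not differ there beyond counting error. As a mean over cells the microglial ratios of Nfkbia and Cd83 were -0.045 and -0.059, Cd83 in microglia was -0.0018 with a total that leaves out ribosomal protein and mitochondrial genes, and Cd83 in dividing cells was -0.40 without integration, so these directions depend on the processing. The difference between classes was not tested, since each class has 1 library per condition.

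The unnamed shallow cluster enters no ratio, level or share given above. Its RA cells are among the 16 groups of the likeness to Tnf and are drawn in the plot against Malat1. The cluster held Tnf at 2152 CPM in 28 RA cells and at 2445 in 16 OIR cells. Tnf in the shallow rods stood at 8.11 CPM, and in the Malat1-rich rods at 46.0 CPM. These cells were shallow, at medians of 2957.5 UMIs in RA and 1167.5 in OIR, and their Malat1 level 35964 and 32066 CPM.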

How the results depend on the processing

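The median log2 ratio of the 10 genes in microglia, 0.05, was 0.20 with a Ptprc limit of 25%, 0.11 with a mitochondrial limit of 10%, -0.11 as a mean over cells of UMIs per 10000, -0.042 with a total that leaves out ribosomal protein and mitochondrial genes, and 0.21 without the Malat1-poor clusters. The median in Malat1-poor against other OIR microglia, -3.19, was -4.28 at resolution 0.5, -4.11 with a mitochondrial limit of 10% and -4.23 with Malat1 under 10% of the median. These settings left 60, 62 and 60 OIR cells in the Malat1-poor group, against 189. With the Ptprc limit of 25% no Malat1-poor cluster was left, and no microglial cluster had rod transcripts among its leading genes, so neither alternative was run for those results. The share of all genes past 2-fold in either direction in microglia was 25.7% with a filter of 1 UMI. The other 68 alternative values for the medians, the share and the background stayed within the counting interval of the value reported, or within 1.5 times for the background. For single genes 560 alternative values stayed within their interval and 115 left it. A further 5 changed sign where the interval of the reported value excluded 0. Sign changes of genes whose interval included 0 are not among these 5. Nfkbia and Cd83 in microglia were -0.045 and -0.059 as a mean over cells, and Cd83 was -0.0018 with the reduced total. Tnfaip3 and Cd83 in dividing cells were -0.24 and -0.40 without integration, where the class held 6 RA cells. These held 0 UMIs of Tnfsf9, so its log2 ratio of 1.73 is a bound for counting error only. Tnfsf9 in microglia stayed between 2.32 and 2.68, and Tnf in macrophages kept its sign in 7 of 14 settings. In monocytes the log2 ratio of Tnf was 0.63 and that of Tnfsf9 0.84 when cells were not filtered on the number of genes. Keeping the endothelial cells, leaving out the shallow macrophage cluster and comparing only cells of at least 2000 UMIs were alternatives chosen after the data were seen. One library per condition limits every comparison between RA and OIR, whatever the depth.
No paired analysis was possible because each condition has 1 library.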
